A study of Danio rerio with 10 samples.

Results

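Small nucleolar RNAs (snoRNAs) and small Cajal body RNAs (scaRNAs) were followed in the livers of zebrafish with β-catenin-driven hepatocellular carcinoma. The members were the rows of the count table whose Ensembl gene name starts with SNORD (box C/D snoRNAs), SNORA (box H/ACA snoRNAs) or SCARNA, in any case, and that held at least 10 counts summed over the 10 fish. Of 32266 rows, 57 carried such a name and 41 were kept: 25 SNORD, 14 SNORA and 2 SCARNA rows. The other 16 rows had fewer than 10 counts, and 14 of them had 0, among them SNORD36A, SNORD42, SNORD46, SNORD63, snord74 and snord47.2. The 41 members have 31 distinct symbols, since 6 symbols are each held by several rows (16 rows in all), which are named here by their Ensembl ID as well. How reads that match several such copies were counted is not given in the sources used here, so the division of counts between them is uncertain.

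The transgenic group, ABC, was 5 male fish carrying Tg(fabp10a-pt-beta-cat), in which the hepatocyte promoter of fabp10a drives an activated β-catenin and whose livers had hepatocellular carcinoma on histology. The wild-type group, WT, was 5 male siblings without the transgene. All were 4 months old, and the small RNA of each liver was sequenced as 1 library (WT replicates 1 to 5, ABC replicates 6 to 10). The study set out to profile microRNAs, so the snoRNAs are a by-product of the same libraries.

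Box C/D snoRNAs guide 2'-O-methylation of ribosomal RNA and box H/ACA snoRNAs guide its pseudouridylation, each by pairing with the target inside a particle of core proteins. A few members instead act in the cutting of the ribosomal RNA precursor, and scaRNAs guide the same modifications of spliceosomal RNAs in Cajal bodies. Most vertebrate snoRNAs lie in introns of host transcripts, often those of ribosomal and translation proteins, and are released when the intron is processed. A kit for small RNA and reads of 50 bases favour short inserts, so a count here can come from a snoRNA fragment or from part of a full-length snoRNA, and the count table cannot tell them apart.

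Total counts were 1423307 to 2609547 in WT and 1236439 to 2408262 in ABC. Pre-miRNAs held 94.7 to 97.5% of the counts in WT and 93.1 to 94.5% in ABC, without overlap, so the rows outside them together held a larger percent of all counts in ABC. The scaling factors of edgeR's TMM method were 0.564 to 0.918 in WT replicates 1 to 4 and 1.56 in WT replicate 5, against 0.842 to 1.58 in ABC. All 19 hepatocyte transcripts looked up passed the count minimum, and 11 of them were lower in ABC, their summed level being 1137 to 3924 CPM (counts scaled to library size) in WT and 327 to 869 CPM in ABC. Exocrine pancreas transcripts were lower in ABC for 12 of 13 tested. Over all tested rows, 3.41% were called lower and 4.36% higher. Summed exocrine pancreas levels were 41.4 to 678 CPM in WT, highest in WT replicate 5. In ABC they were 5.42 to 10.4 CPM, and prss1 was at or below 1.66 CPM in each fish. Some of these rows passed the count minimum mainly through WT fish, such as a CPA1 row (ENSDARG00000030915) at 0 CPM in ABC. Of the other cell types, both muscle transcripts tested, ckma and ckmb, were called lower in ABC. They had 7.72 and 8.09 CPM in WT replicate 5 and at most 1.54 CPM in any other fish, and fell under the count minimum without WT replicate 5. The keratin krt18a.1 was the 1 called row of 8 biliary and intestinal transcripts. It was higher in ABC, at a mean of 5.86 CPM in WT and 40.3 CPM in ABC. None of 3 leukocyte or 1 erythrocyte transcripts was called. Endothelial transcripts were all under the count minimum. The part of these differences in the snoRNA results was not tested, and in whole livers fewer cells of a type and less RNA per cell cannot be told apart.

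The SNORD class held 94.3% ± 1.09 (SD, n = 5) of the member counts in WT and 93.8% ± 1.68 (SD, n = 5) in ABC. As a percent of the counts outside pre-miRNAs, SNORD rows summed to 14.02, 15.7, 17.1, 13.5 and 13.4% in WT replicates 1 to 5 and to 21.5, 15.3, 12.8, 18.8 and 13.96% in ABC replicates 6 to 10. The groups overlapped, with ABC replicates 6 and 9 above every WT fish and ABC replicate 8 below every WT fish, and the ratio of the ABC to the WT mean was 1.117. SNORA rows summed to 0.593, 1.096, 1.19, 0.911 and 0.737% in WT and to 1.37, 1.53, 0.618, 1.124 and 0.861% in ABC, again with overlap and a ratio of means of 1.22. SCARNA rows had 0 to 4 counts per fish in WT and 2 to 6 in ABC. As a percent of all counts the same sums did not overlap, at 0.342 to 0.714% in WT and 0.846 to 1.49% in ABC for SNORD (ratio of means 2.17) and at 0.0153 to 0.0392% and 0.0420 to 0.0953% for SNORA (ratio of means 2.35). The difference between these ratios and those outside pre-miRNAs goes with the smaller share of pre-miRNAs in ABC. As a percent of all counts without the row of most counts, the groups overlapped in both classes. The ratio of means was then 1.088 for SNORD and 1.168 for SNORA. Class sums were described only and not tested.

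**Figure D1:**
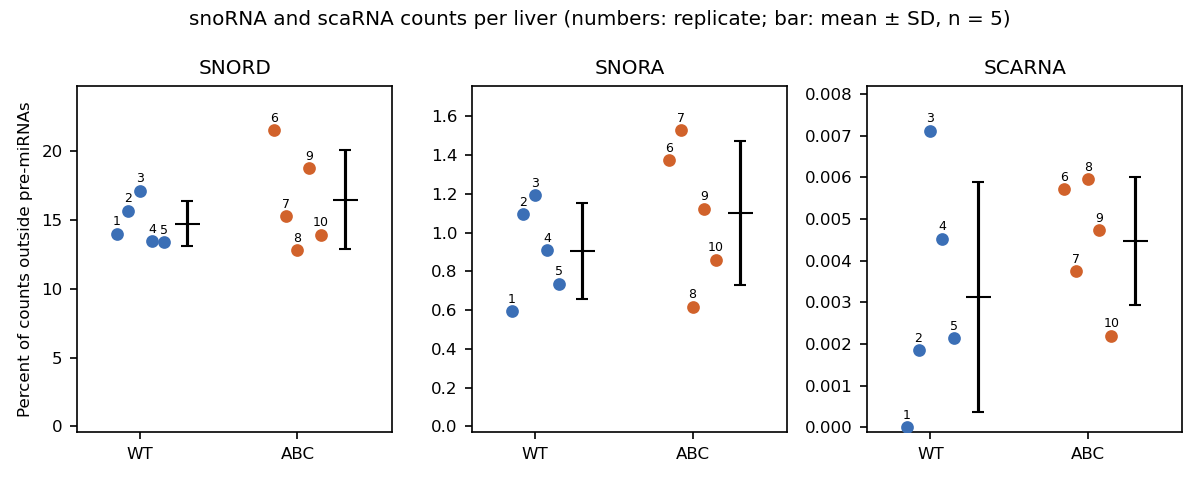
Each point is 1 liver, with its replicate number, and the y axis is the percent of counts outside pre-miRNAs held by the SNORD, SNORA and SCARNA rows; black bars are the mean ± SD (n = 5). WT and ABC overlap in all 3 classes, and the ABC livers spread more widely for SNORD (12.8 to 21.5%, against 13.4 to 17.1% in WT).

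Each row with at least 10 counts was then compared between ABC and WT by edgeR's quasi-likelihood test, and a row was called at an adjusted p (padj, Benjamini-Hochberg over all 3719 rows tested) under 0.05 and an absolute log2 fold-change (L2FC) of at least 0.5. Of the 41 members, 8 were called higher in ABC and 0 lower: SNORD15, 2 rows of SNORD18, SNORD70B, snord29, SNORD54, snord31.3 and SNORA36A. Over all tested rows, 4.36% were called higher and 3.41% lower. Deeper rows are called more often, and 34 members had a mean of at least 10 counts per fish: 7 of these were called higher, where 13.6% of all rows of that depth were (and 10.6% lower). At an unadjusted p under 0.05 there were 19 members, 18 of them higher in ABC, and 763 of all 3719 tested rows. DESeq2's Wald test called 10 members higher and 1 lower, and 2.58% of all tested rows higher and 3.23% lower. It gave some rows no adjusted p, among them SNORD83 and SCARNA14, and these shares count such rows as not called. The L2FC was above 0 for 36 of the 41 members and for 2256 of all 3719 tested rows. Its median was 0.99 over the members and 0.31 over all tested rows. By class, 7 of 25 SNORD, 1 of 14 SNORA and 0 of 2 SCARNA rows were called, with median L2FC of 1.00 for SNORD and 0.97 for SNORA. Among rows with a mean of at least 10 counts, 7 of 24 SNORD and 0 of 10 SNORA rows were called, with medians of 0.96 and 0.95. Whether the classes differ was not tested.

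The number of calls, unlike the sign of their L2FC, depended on the scaling and on single fish. With libraries scaled by total count alone, 17 members were higher and 0 lower. With TMM factors from the pre-miRNAs, 3 were higher and 1 lower. Of all tested rows, 6.61% were called higher and 1.77% lower with total count alone, and 1.4% and 2.34% with the pre-miRNA factors. These scalings moved the median of all tested rows to 0.72 and 0.01, and the share of higher among all calls from 56.1% to 78.8% and 37.4%. The median of the members stayed above that of all rows in each, at 1.46 and 0.74. Without ABC replicate 9 the count of members called higher fell to 3, and without ABC replicate 8 it was 14. Leaving out WT replicate 2 or WT replicate 4 gave 4, and leaving out WT replicate 1 gave 5. Over all tested rows, 3.07% were called higher without ABC replicate 9 and 5.78% without ABC replicate 8. The percent was 2.1, 2.29 and 2.47 without WT replicates 2, 4 and 1. Left out together, a choice made after seeing the data, WT replicate 5 and ABC replicate 9 left 4 members higher and 1 lower. Of all tested rows, 2.39% were then called higher and 1.99% lower.

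**Figure D2:**
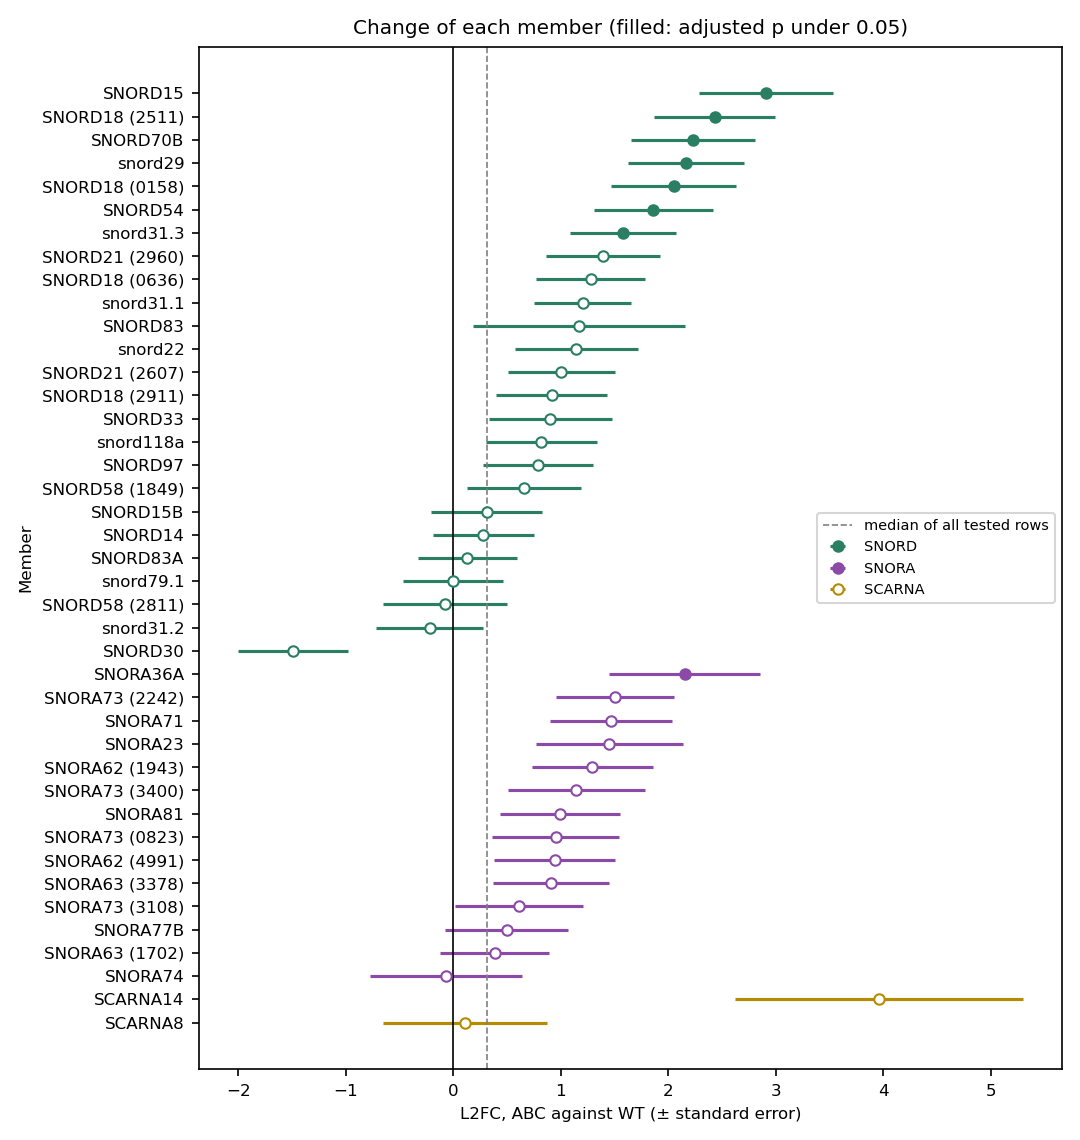
L2FC of ABC against WT (x axis, points with bars of 1 standard error) for all 41 members in order within each class, filled where adjusted p was under 0.05; the dashed line is the median of all tested rows. Most points lie right of that line, SNORD30 lies farthest left at -1.49, and the point of SCARNA14, at 0 counts in WT, depends on the prior count of the fit.

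The fish themselves spread widely. Of the 41 members, 38 had their highest normalized count (CPM after TMM scaling, not divided by length) in an ABC fish, 20 of them in ABC replicate 9 and 16 in ABC replicate 6. The coefficient of variation between fish had a median of 0.419 in WT and 0.524 in ABC over the 34 deeper members, and was larger in ABC for 28 of them. Whole libraries also differed more between ABC fish. Their chi-squared statistic per degree of freedom between 2 fish was 27.9 to 91.9 in WT and 90.7 to 309 in ABC. The highest fish and the coefficient of variation were not counted over all rows, so neither is shown to be particular to the members. In 8 members every ABC fish lay above every WT fish, and in 1, SNORD30, every ABC fish lay below. The 8 include SCARNA14, which met the count minimum through ABC fish alone. Over all tested rows such a separation was found upward in 4.14% and downward in 2.69%. Of the 34 deeper members 7 lay wholly above, against 8.83% of all rows of that depth.

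The first group by position are the snoRNAs that in human lie in introns of SNHG1, a host whose spliced RNA codes for no protein: snord22, snord29, SNORD30, snord31.1, snord31.2 and snord31.3. All are box C/D snoRNAs, and their host in zebrafish was not looked up here. Their L2FC did not share 1 direction: 2 of the 6 were called higher, snord31.1 and snord22 were above 0 without a call, snord31.2 overlapped between the groups and SNORD30 lay lower without a call.

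snord29 had normalized counts of 36.0, 41.8, 84.5, 70.1 and 32.3 CPM in WT replicates 1 to 5 and of 225, 191, 60.2, 547 and 163 CPM in ABC replicates 6 to 10. All ABC fish except replicate 8 lay above the WT range. It rose with an L2FC of 2.16 ± 0.54 (SE), padj = 0.00464, and was called in 9 of the 10 fits that left out 1 fish. Without ABC replicate 9 the L2FC was 1.51 and the call was lost (padj = 0.0676).

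snord31.1 is the row with the most counts of all members, 40528, or 16.1 to 33.0% of the member counts in WT fish and 22.7 to 42.6% in ABC fish. Its normalized counts were 1147, 1344, 1272, 1044 and 1602 CPM in WT and 4801, 3007, 2540, 2958 and 1453 CPM in ABC. Here 4 of 5 ABC fish lay above every WT fish and ABC replicate 10 lay within the WT range. The L2FC was 1.204 ± 0.45 (SE) with padj = 0.0858, so it was not called, and it passed under 2 of 6 alternative scalings. The 6 included DESeq2 size factors, total count alone, and TMM factors over the pre-miRNAs, over the other rows or without the row of most counts. The last of the 6, chosen after seeing the data, was TMM factors over deeper rows. snord31.1 was called in 0 of the 10 fits without 1 fish. DESeq2's Wald test called it higher (padj = 0.0426), as did edgeR's test without both WT replicate 5 and ABC replicate 9 (padj = 0.0479).

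snord31.3, a row of the same family, had 68.2, 144, 311, 243 and 223 CPM in WT and 738, 380, 462, 1015 and 356 CPM in ABC. The groups did not overlap, and it rose with an L2FC of 1.58 ± 0.50 (SE), padj = 0.0344. The call held under 5 of the 6 alternative scalings and in 5 of the 10 fits without 1 fish. Leaving out any 1 of WT replicates 1, 2 and 4 or ABC replicates 6 and 9 ended it (padj from 0.0531 to 0.140), and the L2FC was lowest, at 1.23, without ABC replicate 9. snord31.2 had 342, 443, 487, 516 and 130 CPM in WT and 340, 128, 136, 726 and 316 CPM in ABC, with full overlap of the groups and an L2FC of -0.22 ± 0.50 (SE), padj = 0.874.

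SNORD30 went the other way. It had 136, 214, 114, 279 and 201 CPM in WT and 96.5, 43.6, 52.8, 96.3 and 46.5 CPM in ABC. Every ABC fish lay below every WT fish. Any such separation has an exact permutation p of 0.00794 (two-sided), the smallest that 5 fish against 5 allow. The 8 members that lay wholly above in ABC have the same p, so it adds nothing to the separation. SNORD30 was picked among 41 members with its values seen, and 2.69% of all tested rows lay wholly below. In the fit across all rows its L2FC was -1.49 ± 0.51 (SE) with padj = 0.0529, just short of the threshold. It was called lower under 4 of the 6 alternative scalings, without WT replicate 1 or 3 or ABC replicate 8 or 9 (L2FC -1.74 to -1.42, padj from 0.0339 to 0.0492), and by DESeq2's Wald test. snord22 had few counts, 5.36, 8.36, 8.45, 6.12 and 5.51 CPM in WT and 21.2, 10.4, 14.8, 19.6 and 9.01 CPM in ABC, without overlap, and its L2FC of 1.14 ± 0.57 (SE) was not called (padj = 0.240).

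A ratio between members of the same fish does not depend on the scaling of the libraries. SNORD30 was taken as the denominator after its values were seen, so these ratios are a description without a test. Counts of snord31.1 were 3.74 to 11.2 times those of SNORD30 in WT fish and 30.6 to 68.7 times in ABC fish. For snord31.3 the ratio was 0.501 to 2.73 in WT and 7.62 to 10.5 in ABC. For snord29 it was 0.161 to 0.744 in WT and 1.14 to 5.67 in ABC. In all 3 the fish of the groups did not overlap, and the same held for snord22 at 0.0231 to 0.0774 and 0.198 to 0.284. The ratio of snord31.2 to SNORD30 was 0.646 to 4.27 in WT and 2.57 to 7.52 in ABC, with overlap. The mean log2 ratio was higher in ABC by 2.62 for snord31.1, 3.13 for snord31.3, 3.43 for snord29, 2.56 for snord22 and 1.13 for snord31.2.

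**Figure D3:**
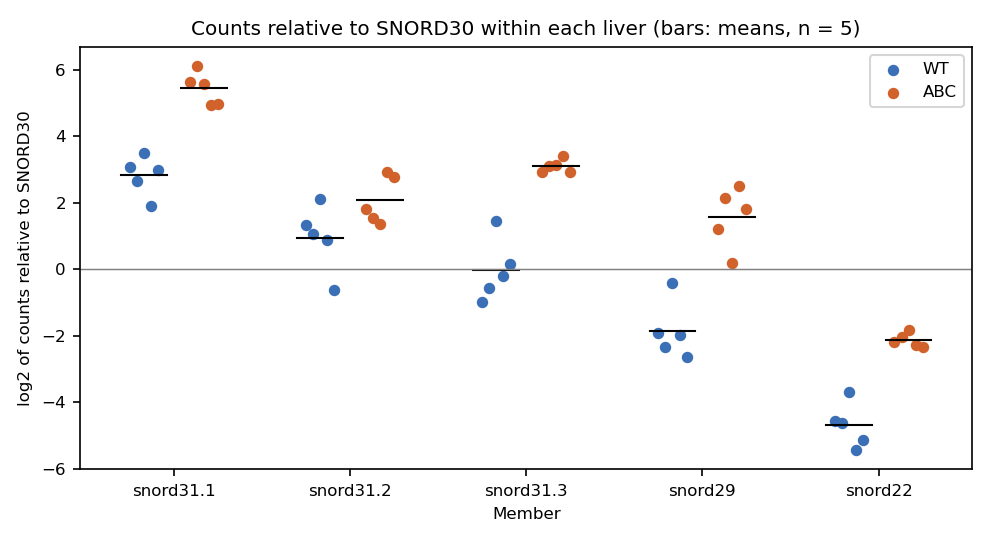
Within each liver, the log2 of the counts of 5 box C/D snoRNAs relative to SNORD30 (y axis; 0.5 was added to each count), with 1 point per fish and bars at the group means (n = 5). ABC and WT do not overlap for snord31.1, snord31.3, snord29 and snord22, and overlap for snord31.2, as SNORD30 was chosen for its low level in ABC.

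The second group are snoRNAs whose human copies lie in introns of ribosomal protein genes. The 4 rows of SNORD18, hosted by RPL4 in human, all had an L2FC above 0, and 2 were called. Summed to 1 row before edgeR's test, they had an L2FC of 1.42 and were not called (padj = 0.0656).

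SNORD18 (ENSDARG00000082511) had 15.3, 22.8, 26.9, 27.2 and 10.3 CPM in WT and 94.4, 92.2, 44.9, 250 and 70.6 CPM in ABC. The groups did not overlap. It rose with an L2FC of 2.43 ± 0.56 (SE), padj = 0.00196, and was called in all 10 fits without 1 fish and under all 6 alternative scalings. Without ABC replicate 9 the L2FC was 1.81 (padj = 0.0324).

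SNORD18 (ENSDARG00000080158), with 6.80 to 9.19 CPM in WT and 22.8, 21.2, 29.6, 76.2 and 17.1 CPM in ABC, did not overlap either and rose with an L2FC of 2.05 ± 0.58 (SE), padj = 0.0162. It was called under 4 of the 6 alternative scalings and in 6 of the 10 fits without 1 fish. It lost its call when any 1 of WT replicates 2, 3 and 4 or ABC replicate 9 was left out. Without ABC replicate 9 its L2FC was 1.43 (padj = 0.149). SNORD18 (ENSDARG00000080636) had 75.8, 135, 176, 161 and 48.5 CPM in WT and 243, 191, 214, 618 and 179 CPM in ABC, where the lowest ABC fish lay just above the highest WT fish, and its L2FC of 1.28 ± 0.51 (SE) was not called (padj = 0.114). SNORD18 (ENSDARG00000082911) overlapped between groups, with 28.4 to 103 CPM in WT, 91.8 to 243 CPM in ABC and an L2FC of 0.91 (padj = 0.327). In all 4 rows ABC replicate 9 was the highest fish.

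SNORD15, which in human lies in RPS3, showed the largest called rise. Its 718 counts gave 1.53, 5.32, 11.5, 12.9 and 11.02 CPM in WT and 35.3, 42.4, 34.3, 190 and 21.3 CPM in ABC, without overlap. The L2FC was 2.91 ± 0.62 (SE), 7.51-fold, with padj = 0.000855, and the call held in all 10 fits without 1 fish, where the L2FC was 1.89 (without ABC replicate 9, padj = 0.0399) to 3.13. Its family member SNORD15B, with 76.0 to 150 CPM in WT and 323, 119, 46.0, 83.4 and 89.1 CPM in ABC, overlapped fully, and its L2FC was 0.31 ± 0.52 (SE), padj = 0.812. Within fish, SNORD15B had 7.98 to 41.8 times the counts of SNORD15 in WT and 0.441 to 9.11 times in ABC. The mean log2 ratio was lower in ABC by 2.64 (two-sided exact permutation p = 0.0159, adjusted p = 0.0899 over 17 pairs of rows of the same family), which did not pass. None of the 17 pairs passed, and 4 had an unadjusted p under 0.05.

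SNORD54, hosted by RPS20 in human, had 26.8, 10.6, 40.7, 32.0 and 21.7 CPM in WT and 92.2, 89.7, 28.0, 196 and 72.5 CPM in ABC. All ABC fish but replicate 8 lay above the WT range. It rose with an L2FC of 1.86 ± 0.55 (SE), padj = 0.0228. The call held under 4 of the 6 alternative scalings and in 6 of the 10 fits without 1 fish. Leaving out any 1 of WT replicates 1, 2 and 4 or ABC replicate 9 ended the call, and without ABC replicate 9 the L2FC was 1.32 (padj = 0.156).

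SNORD21, hosted by RPL5 in human, has 2 rows. In ENSDARG00000082960 the WT fish had 24.5 to 54.7 CPM and the ABC fish 90.0, 68.9, 63.4, 255 and 87.7 CPM, without overlap, and the L2FC of 1.39 ± 0.53 (SE) was not called (padj = 0.0924). In ENSDARG00000082607 the groups overlapped at 82.7 to 231 CPM and 125 to 515 CPM, with an L2FC of 1.00 (padj = 0.239). The 2 rows of SNORD58, hosted by RPL17 in human, and SNORD33, hosted by RPL13A, overlapped between groups, and their L2FC was 0.66, -0.08 and 0.90 with padj of 0.544, 0.965 and 0.401.

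SNORD83A, hosted by RPL3 in human, was the second row by counts (24400). It had 893, 1531, 1894, 1395 and 804 CPM in WT and 1726, 1593, 762, 2275 and 774 CPM in ABC. The groups covered nearly the same range, with an L2FC of 0.13 ± 0.46 (SE), padj = 0.932, whose sign changed under other scalings. SNORD83 had 12 counts in all and an L2FC of 1.17 ± 0.99 (SE).

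**Figure D4:**
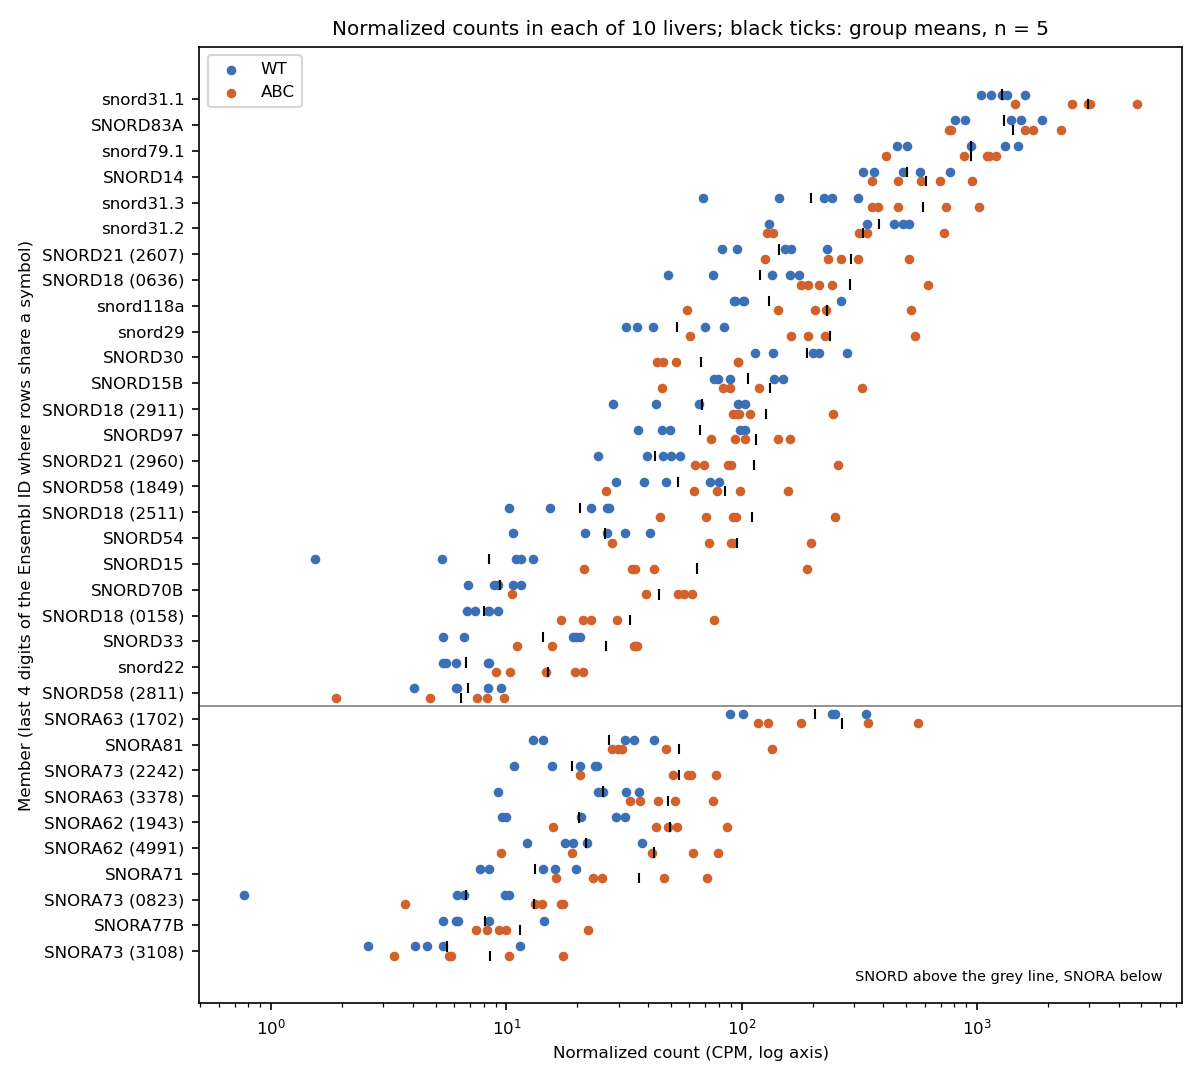
Normalized counts (x axis, CPM on a log scale) of the 34 members with a mean of at least 10 counts, 1 point per liver, WT above ABC in each line, with black ticks at the group means (n = 5). SNORD15, snord31.3 and 3 SNORD18 rows are among those with every ABC point right of every WT point, and SNORD30 is the line with every ABC point to the left.

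The third group are box C/D snoRNAs with other hosts. SNORD70B, which in human lies in NOP58, the gene of a box C/D core protein, had 6.90, 10.6, 9.22, 11.6 and 8.82 CPM in WT and 56.9, 61.5, 10.6, 53.6 and 39.3 CPM in ABC. ABC replicate 8 was within the WT range and the other 4 ABC fish were far above it. SNORD70B rose with an L2FC of 2.23 ± 0.58 (SE), padj = 0.00728, called in all 10 fits without 1 fish. Its call held under 5 of the 6 alternative scalings and was lost with TMM factors over the pre-miRNAs (padj = 0.0716).

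snord79.1, from the GAS5 host in human, had 458, 1318, 1494, 945 and 506 CPM in WT and 1103, 1126, 409, 1201 and 877 CPM in ABC. The groups overlapped fully and the L2FC was -0.0017 ± 0.47 (SE), padj = 0.999. SNORD97, from EIF4G2 in human, had 36.4 to 103 CPM in WT and 73.9 to 160 CPM in ABC with an L2FC of 0.79 (padj = 0.419).

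SNORD14 (U14) and snord118a (U8) act in cutting of the ribosomal RNA precursor, U14 for the small and U8 for the large subunit. SNORD14 had 329, 572, 764, 484 and 364 CPM in WT and 953, 579, 358, 461 and 696 CPM in ABC, with overlap and an L2FC of 0.28 ± 0.47 (SE), padj = 0.812. snord118a had 92.7, 103, 93.7, 101 and 264 CPM in WT and 522, 142, 58.7, 204 and 228 CPM in ABC. WT replicates 1 to 4 lay close together and WT replicate 5 lay above 4 of the 5 ABC fish, and the L2FC was 0.82 ± 0.52 (SE), padj = 0.398. Neither was called.

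The deepest box H/ACA row held 4347 counts, against 40528 in the deepest box C/D row. The 1 called box H/ACA row was SNORA36A, which in human lies in DKC1, the gene of the pseudouridine synthase of the H/ACA particle. It was called from 65 counts in all: 1, 3, 0, 1 and 5 counts in WT replicates 1 to 5 and 14, 11, 1, 23 and 6 in ABC replicates 6 to 10. The groups overlapped through ABC replicate 8. The L2FC was 2.15 ± 0.70 (SE), padj = 0.0437, and the call held without ABC replicate 8 or 10, was lost in the other 8 fits without 1 fish (L2FC 1.58 to 2.47, padj from 0.0608 to 0.233), and held under 2 of the 6 alternative scalings.

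SNORA63 (ENSDARG00000081702), hosted by EIF4A2 in human, had 88.9, 243, 339, 250 and 101 CPM in WT and 344, 561, 117, 179 and 129 CPM in ABC. The groups overlapped and the L2FC was 0.38 ± 0.51 (SE), padj = 0.751. The other SNORA63 row (ENSDARG00000083378), at 9.19 to 36.5 CPM in WT and 33.7 to 75.4 CPM in ABC, had an L2FC of 0.91 (padj = 0.360), and SNORA81, from the same human host, had an L2FC of 0.99 (padj = 0.322).

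SNORA73 (U17, or E1), which acts in cutting of the precursor rather than as a modification guide, has 4 rows among the members. The deepest, ENSDARG00000082242, had 10.7, 20.5, 23.8, 15.7 and 24.3 CPM in WT and 78.1, 59.4, 20.6, 60.8 and 51.2 CPM in ABC. Again ABC replicate 8 was the ABC fish within the WT range, and the L2FC of 1.501 ± 0.55 (SE) was not called (padj = 0.0757). The other SNORA73 rows had an L2FC of 0.95, 0.61 and 1.14, none called. SNORA62, hosted by RPSA in human, has 2 rows with an L2FC of 1.29 (padj = 0.156) and 0.94 (padj = 0.362). SNORA71, SNORA77B and SNORA23 had an L2FC of 1.47, 0.49 and 1.45, and SNORA74 (U19) of -0.07, none called.

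The 2 scaRNA rows had 34 counts between them. SCARNA8 had 10 counts in WT and 14 in ABC and an L2FC of 0.11 ± 0.77 (SE). SCARNA14 had 0 counts in all WT fish and 4, 2, 2, 1 and 1 counts in ABC replicates 6 to 10. The row thus met the count minimum through ABC fish alone. Against a floor of 3 counts over the WT group, its ABC level was 2.65-fold. That floor covers counting error in WT only and the 10 ABC counts were taken as exact, so 2.65 is no lower bound. SCARNA14 was not called (padj = 0.0521). It was called with libraries scaled by total count alone (padj = 0.0351), with TMM without the row of most counts (padj = 0.0463), without ABC replicate 8 (padj = 0.0476) and without ABC replicate 10 (padj = 0.0433), so its call depended on the setting.

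**Figure D5:**
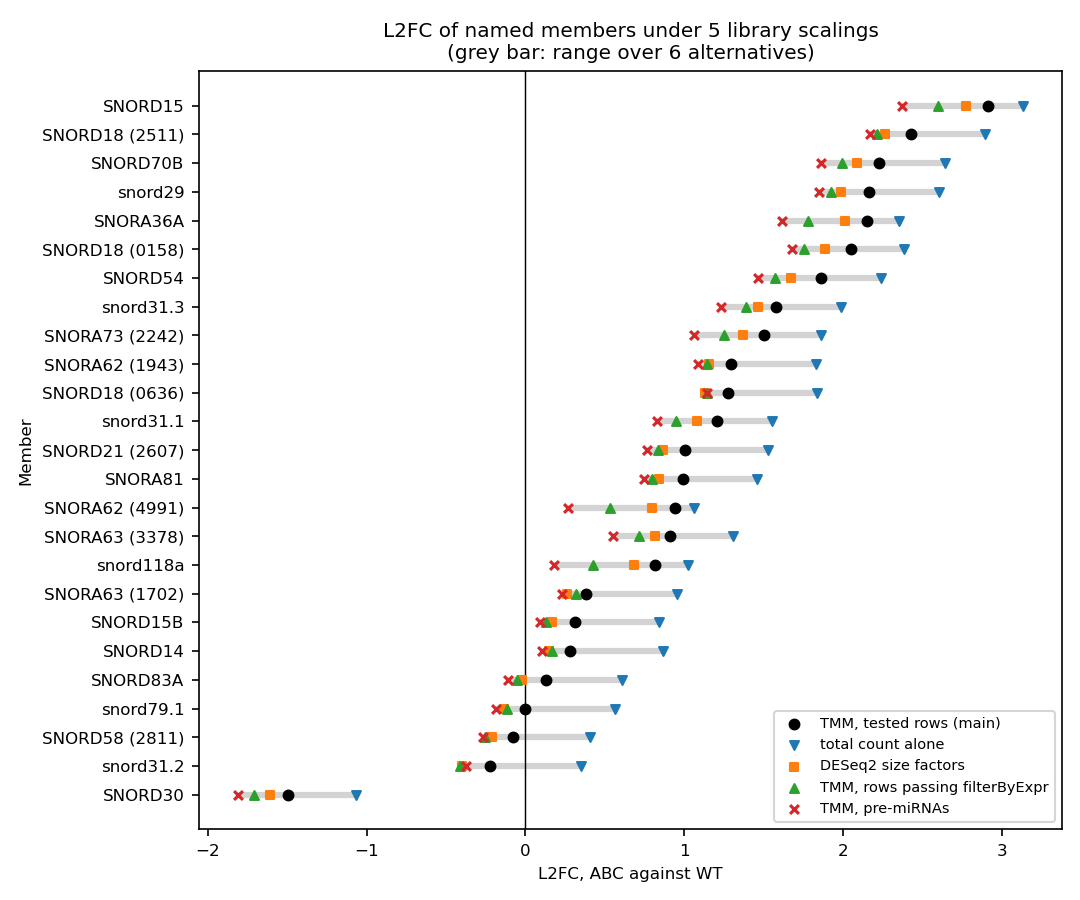
L2FC of the named snoRNAs (x axis) under the scaling used here (black) and 4 of the 6 alternatives (symbols), with grey bars over the range of all 6. Total count alone gives the highest value for every snoRNA shown. SNORD15, SNORD70B, snord29 and a row of SNORD18 (ENSDARG00000082511) stay at 1.85 or above, and SNORD30 stays below -1.

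Transcripts of the same pathway were sparse in these libraries. Of the box C/D core proteins, NOP56 (L2FC -0.14, padj = 0.955) and FBL, the methyltransferase fibrillarin (L2FC 2.43, padj = 0.196), reached 10 counts, and none of the 6 rows of box H/ACA proteins did. FBL had 11 counts in all, at a mean of 0.152 CPM in WT and 0.978 CPM in ABC. Of transcripts for assembly and Cajal bodies 1 of 13 was tested, and of those for ribosomal RNA synthesis and processing 11 of 39, with 0 called in either list by edgeR's test (0 and 2 at an unadjusted p under 0.05). The median of the 11 was 0.35, close to the 0.31 of all rows. Of 20 proliferation transcripts, 4 were tested, 0 were called and the median L2FC was 2.20, 3 of them at an unadjusted p under 0.05. PCNA, CCNB1 and TOP2A had 11, 12 and 18 counts in all. Their mean levels were 0, 0.136 and 0.363 CPM in WT and 0.996, 1.14 and 1.46 CPM in ABC. Such rows passed the count minimum mainly through ABC fish, so this median and these p-values cannot show a rise.

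Among transcripts known as snoRNA hosts, 4 of 32 tested were called higher and 0 lower, with a median L2FC of 0.55. The shares over all tested rows were 4.36% higher and 3.41% lower, with a median of 0.31. All 4 host calls rested on ABC replicate 8. RPL4, the human host of SNORD18, had 6.12 to 41.5 CPM in WT and 20.1, 16.6, 620, 16.99 and 10.9 CPM in ABC, with an L2FC of 3.00 ± 0.70 (SE) and padj = 0.00242. RPL10, RPS12 and rpl7a had 192, 200 and 242 CPM in ABC replicate 8 and at most 16.99, 8.68 and 13.4 CPM in the other ABC fish. Without that fish none of these 4 was called. ABC replicate 8 was not the fish with the highest level of any snoRNA or scaRNA member. ABC replicate 9, the highest for all SNORD18 rows, had 16.99 CPM of RPL4. Whether host and snoRNA levels are related was not tested. RPL13A, the human host of SNORD33, had 714 to 1570 CPM in WT and 779 to 1489 CPM in ABC (L2FC -0.09, padj = 0.952). The host gas5 had 261, 435, 380, 642 and 341 CPM in WT and 1233, 964, 463, 1163 and 553 CPM in ABC, with an L2FC of 1.09 ± 0.47 (SE) that was not called (padj = 0.155). Rows of a host and of the snoRNA inside it can cover the same bases, and how reads were divided between them is not given in the sources used here.

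Other small nuclear RNAs were measured beside the snoRNAs. Of 13 spliceosomal and U7 rows tested, U7, which acts in histone mRNA processing, was the 1 called higher (3.06, 8.36, 4.61, 1.36 and 2.21 CPM in WT and 30.9, 25.7, 4.76, 10.3 and 20.9 CPM in ABC, L2FC 2.25 ± 0.63, padj = 0.0136). It lost its call without WT replicate 4 or WT replicate 5. Called shares over all tested rows were 4.36% higher and 3.41% lower. The median of the 13 rows was 0.95, beside 0.99 for the snoRNA and scaRNA rows and 0.31 for all tested rows. A U1 row of 14 counts (ENSDARG00000080448) had an L2FC of -0.62. A U5 row (ENSDARG00000082842, 14 counts) and a U6 row (ENSDARG00000083520, 11 counts) had means of 0.154 and 0.136 CPM in WT. Their means in ABC were 1.23 and 1.00 CPM. These U5 and U6 rows passed the count minimum mainly through ABC fish, so the median of 0.95 cannot show a rise. Of 9 rows for 7SL, RNase P, RNase MRP and similar RNAs, with a median of 0.30, an RNase P row (RNaseP_nuc) was called higher, with an L2FC of 2.64 and padj = 0.0147, at 47.7, 3.32, 19.02, 0 and 10.9 CPM in ABC, and lost its call in 5 of the 10 fits without 1 fish. The 1 row under the plain names U3 or U8, outside the naming rule, had 0 counts.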

How the data were processed

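Small RNA libraries of 10 zebrafish livers (5 WT, 5 ABC) were prepared by the authors with the NEBNext small RNA kit and sequenced as single reads of 50 bases. For its microRNAs, the paper gives alignment to GRCz10 and counting with miRBase. The submitters' processing notes list Novoalign and featureCounts without versions. The deposited values are raw counts per Ensembl gene, not normalized, for 32266 rows, of which 0 name no gene. Symbols came from a gene name table that named 26433 rows, 272 of them pre-miRNAs. No sequence or coordinate of the members was used here. Every column of sample values was used (0 left out).

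The members and all gene lists were chosen with earlier results of these data known. Rows with at least 10 counts summed over the fish (3719) were tested with edgeR 4.0.16 (R 4.3.3, with limma 3.58.1), using TMM factors over these rows, glmQLFit and glmQLFTest without covariates, and Benjamini-Hochberg adjustment over all of them. The authors used DESeq2 with the same thresholds for microRNAs, and DESeq2 1.42.0 was an alternative here. The SE of an L2FC is its size over the root of the F statistic. Within-fish ratios used a pseudocount of 0.5. For single members, an exact permutation test (two-sided, 5 fish against 5) was added. The code of the fit was tried on data simulated from the levels and spread of these same libraries, so that trial does not bear on the results. No pair of libraries was identical or within sampling noise. The titles give a library number, a fish code and the genotype, and nothing more of the fish. Library numbers run 1 to 5 in WT and 6 to 10 in ABC, so library order and genotype cannot be told apart. The p-values weigh the difference between the groups against the spread between these fish. Named were all called members, the rows with the most counts (12 SNORD, 6 SNORA and both SCARNA, where the rule allowed up to 4) and the 3 largest rises and falls among members with a mean of at least 10 counts. Other members were added after their values were seen. Alternatives were other scalings, tests, count minimums, call thresholds and denominators, summing rows of 1 symbol and leaving out each fish.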

Additional observations from a re-analysis of the deposited data

Results flagged for a closer look

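A fish stood apart from the other 4 of its group by Dixon's criterion in 7 of the 60 sets examined, which were normalized counts of named members and class percents outside pre-miRNAs. A rate of 1 in 20 would give 3. The sets share the same fish and some members were named for their change, so this rate is a rough guide only. In ABC replicate 9 these were SNORD18 (ENSDARG00000080636) at 617.8 CPM, the other ABC fish lying at 178.7 to 242.9, SNORD18 (ENSDARG00000082511) at 249.7 CPM (others 44.9 to 94.4), SNORD18 (ENSDARG00000080158) at 76.2 CPM (others 17.1 to 29.6), SNORD15 at 189.5 CPM (others 21.3 to 42.4) and SNORA81 at 134.9 CPM (others 28.0 to 47.7). In ABC replicate 6, SNORD15B was at 323.2 CPM, the other ABC fish lying at 46.0 to 118.7. In WT replicate 5, snord118a was at 263.5 CPM, the other WT fish lying at 92.7 to 102.6. Without ABC replicate 9, SNORD15, SNORD70B and SNORD18 (ENSDARG00000082511) were still called and 5 of the 8 calls were lost.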

How the results depend on the processing

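Of the 8 members called higher, 7 were SNORD and 1 SNORA. Members called higher (all, SNORD, SNORA) numbered 7, 7 and 0 with DESeq2 size factors, 17, 13 and 3 with total count alone, 3, 3 and 0 with TMM over pre-miRNAs, 11, 8 and 2 with TMM without the row of most counts, 13, 10 and 3 of 34 with filterByExpr, 4, 4 and 0 with every row of at least 1 count, 4, 4 and 0 at an adjusted p under 0.01, and 3 to 14, 3 to 9 and 0 to 4 with 1 fish left out. TMM over the rows passing filterByExpr, added after seeing the data, gave 5, 5 and 0. Leaving out WT replicate 5 and ABC replicate 9 together, added likewise, gave 4, 4 and 0. Summing rows of 1 symbol gave 6, 5 and 1 of 31. Of all tested rows, 3.33% were called higher with DESeq2 size factors, 6.61% with total count alone and 1.4% with TMM over pre-miRNAs. The share was 5.4% without the row of most counts, 17.5% with filterByExpr, 0.616% with every row and 4.36% with symbols summed. With 1 fish left out it was 2.1 to 5.78%, and in both added settings 2.18% and 2.39%. SNORD30 was the 1 member called lower, with DESeq2 size factors, TMM over pre-miRNAs, TMM without the row of most counts, DESeq2's Wald test, filterByExpr and both added settings, and the count lower was 0 to 1 with 1 fish left out. The SNORA call was lost without any 1 of WT replicates 1 to 5 and ABC replicates 6, 7 and 9. The median L2FC of the members was 0.74 to 1.46 over the alternatives. The ratio of class means was 2.17 (SNORD) and 2.35 (SNORA) as a percent of all counts, and 1.088 and 1.168 without the row of most counts.

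Signs changed where the L2FC was near 0; the cause was not tested. SNORD83A was at -0.019 under the size factors and the Wald test of DESeq2, -0.11 with TMM over pre-miRNAs, -0.052 with filterByExpr and with the added TMM, -0.23 without the pair, and -0.17 to 0.29 with 1 fish left out. snord79.1 was at 0.57 with total count alone, 0.0040 with TMM over other rows, 0.12 without the row of most counts, 0.094 with every row, 0.027 with symbols summed and -0.23 to 0.19 with 1 fish left out. snord31.2 was at 0.35 with total count alone. SNORD58 (ENSDARG00000082811) was at 0.41 with total count alone, 0.0044 without the row of most counts and -0.27 to 0.15 with 1 fish left out. With symbols summed it was merged with the deeper SNORD58 row, and the value of 0.62 is that of the merged row. SCARNA8 was at -0.056 with TMM over pre-miRNAs, -0.0011 with DESeq2's Wald test, -0.0056 with the added TMM, -0.41 without the pair and -0.27 to 0.51 with 1 fish left out. With 1 fish left out, SNORD15B was at -0.34 (without ABC replicate 6) to 0.53 and SNORA63 (ENSDARG00000081702) at -0.15 (without ABC replicate 7) to 0.57. No paired analysis was possible because the libraries are numbered 1 to 5 in WT and 6 to 10 in ABC, and although the fish codes in the titles share some digits between groups, nothing in the labels says that they pair fish.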
